A study of Mus musculus with 12 samples.

Results

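Rhobtb1 and Arhgap26 are 2 mouse genes whose m6A peaks differed in both directions between cadmium-exposed and control livers, some peaks being higher in the cadmium samples and others lower. Every peak whose gene annotation holds Rhobtb1 or Arhgap26 was taken, which gave 20 of the 37118 deposited peaks, 10 for each gene. The 2 genes were selected on their log2 changes and adjusted p in the comparison described here, with calls in both directions, so the differences between cadmium and control at these 20 peaks are given as a description and are not tested again. The livers came from male wild-type C57BL/6 mice, 6 to 8 weeks old in the labels, that received CdCl2 by gavage for 90 days at 20 mg/kg/day, while the control mice received 0 mg/kg/day. MeRIP-seq pulls down RNA fragments that carry N6-methyladenosine (m6A), the methylated form of adenosine found inside many mRNAs, and sequences them. Counts per peak were read as those of the immunoprecipitated (IP) libraries, with 3 cadmium and 3 control samples from batches 1, 2 and 3 of the labels. The labels' protocol names 6 mice per group, and whether a sample is 1 mouse or a pool is not stated. The p-values therefore measure the spread between these samples, which may be technical. Input counts were not used, so a difference in peak counts can come from the amount of RNA, from the methylated share, or from both.

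Rhobtb1 encodes an atypical small GTPase that carries BTB domains and binds cullin-3 (CUL3), the scaffold of a family of ubiquitin ligases. Arhgap26 encodes GRAF1, a GTPase-activating protein that switches off the small GTPases RhoA and Cdc42 and acts in endocytosis and at focal adhesions. The annotation places other genes within both. Fgf1, which encodes acidic fibroblast growth factor, a secreted ligand of the FGF receptors with a role in metabolic control, lies inside Arhgap26 and is transcribed from the opposite strand. The noncoding RNA gene Gm15337 lies near the far end of Arhgap26, and A930033H14Rik, a protein-coding gene in RefSeq, lies inside Rhobtb1 on the opposite strand. The sources used here do not say whether strand was used in counting, so reads of overlapping genes cannot be told apart.

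All 20 peaks passed the filter on low counts. Total counts in peaks were 40174736 to 52338612 per sample, and the 2 largest peaks of the table took 4.95% to 19.7% of them. Hepatocyte markers were present (6 of 6 measured, with none called), at summed levels of 14780 to 16967 CPM in cadmium and 16445 to 18058 CPM in control samples. Levels are given as CPM, the peak count relative to the TMM-scaled library size. A peak was called when its adjusted p in edgeR's quasi-likelihood test was below 0.05, with no minimum fold. Of all 37088 tested peaks 6.27% were called, 3.55% higher and 2.72% lower in cadmium samples, and the median log2 change was 0.00. The 3 cadmium and 3 control values did not overlap at 26.8% of tested peaks, 14.4% with cadmium higher and 12.5% with cadmium lower.

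The 10 Rhobtb1 peaks lie on chromosome 10 inside the gene's RefSeq interval (69151058 to 69291791, GRCm38.p6, plus strand). RefSeq start sites are shown because the higher peak lies before those listed and every lower peak lies after the first of them, although the gene's interval itself begins 57.5 kb before start 1. Windows of 250 bases before to 50 after the start are listed for 3 Rhobtb1 start sites, at positions 69208552, 69212657 and 69213194, and are printed 5′ to 3′ on the plus strand with the bases after the start in capitals. They span chr10:69208302-69208601, chr10:69212407-69212706 and chr10:69212944-69213243.
Rhobtb1 start 1: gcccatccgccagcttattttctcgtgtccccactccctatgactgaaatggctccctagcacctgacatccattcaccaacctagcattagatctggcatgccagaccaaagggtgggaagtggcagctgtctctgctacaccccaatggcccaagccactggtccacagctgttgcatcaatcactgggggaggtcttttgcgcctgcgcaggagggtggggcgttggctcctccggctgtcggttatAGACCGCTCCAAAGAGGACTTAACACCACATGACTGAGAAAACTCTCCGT
Rhobtb1 start 2: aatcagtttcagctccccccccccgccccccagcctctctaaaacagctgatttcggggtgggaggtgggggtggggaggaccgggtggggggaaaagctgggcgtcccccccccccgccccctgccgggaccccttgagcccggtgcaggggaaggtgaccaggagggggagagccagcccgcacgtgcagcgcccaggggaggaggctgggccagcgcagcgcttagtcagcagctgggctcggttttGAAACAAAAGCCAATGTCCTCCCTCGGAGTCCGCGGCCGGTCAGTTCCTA
Rhobtb1 start 3: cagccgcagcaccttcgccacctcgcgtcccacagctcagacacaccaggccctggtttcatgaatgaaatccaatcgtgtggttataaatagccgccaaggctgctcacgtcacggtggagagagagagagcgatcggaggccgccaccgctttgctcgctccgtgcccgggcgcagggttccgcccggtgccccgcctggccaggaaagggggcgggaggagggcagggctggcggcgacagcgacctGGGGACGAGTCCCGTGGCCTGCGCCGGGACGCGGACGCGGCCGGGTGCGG
Windows for Arhgap26, Fgf1 and Gm15337 were not used here.

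Peak 1 of Rhobtb1 (69175058 to 69175244) ends 33308 bp before start 1. Peak 2 (69210093 to 69210539) begins 1541 bp after start 1 and ends 2118 bp before start 2. Peak 3 (69212781 to 69212953) begins 124 bp after start 2 and ends 241 bp before start 3. Peaks 2 and 3 both also carry A930033H14Rik, whose interval runs from 69209762 to 69213098, and peak 3 ends 145 bp inside its start. Its own 300-base window, on the minus strand, shares 195 bases with that of Rhobtb1 start 3. No A930033H14Rik peak lay outside the Rhobtb1 peaks, and 0 other peaks of the table lay within 250 kb of the outermost Rhobtb1 peaks. The remaining 7 peaks run from 69219806 (peak 4) to 69291717 (peak 10), which ends 74 bp before the end of the gene.

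The windows were searched on both strands for 7 short motifs. The E-box CACGTG, a site bound by clock and other basic helix-loop-helix factors, was found in the window of start 2, beginning at position -67 relative to the start. It occurs in 7.15% of 32851 RefSeq windows of this length. TGCGCNC, a form of the metal response element core, was found on the minus strand of the window of start 3 (position -80) and occurs in 15.4% of windows. Its other form TGCACNC (12.6% of windows), the cyclic AMP response element TGACGTCA (1.79%) and the D-box forms TTATGTAA (0.938%) and TTACGTAA (0.119%) were not found in the 3 windows. GGACT, the most frequent core of m6A sites, stood 16 bases into the transcribed part after start 1 and, on the minus strand, at positions 28 and 8 after starts 2 and 3. Rhobtb1 is transcribed from the plus strand, so its transcripts do not read GGACT at the minus-strand matches. On either strand GGACT occurs in 45.5% of windows. No matches overlapped each other, and a match is a description of letters only.

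Rhobtb1 peak 1 was the only one of the gene's 10 peaks with a higher level in cadmium samples. Its levels were 4.59, 2.32 and 2.72 CPM in cadmium replicates 1, 2 and 3 and 0.876, 1.35 and 1.25 CPM in control replicates 1, 2 and 3. The groups did not overlap, and cadmium replicate 1 was the highest sample. The mean was 3.21 ± 1.21 CPM in cadmium and 1.16 ± 0.251 CPM in control samples (SD, n = 3), a 2.76-fold difference (log2 change 1.46, SE 0.31). It is a low peak, resting on 43 to 68 counts per control sample and 125 to 194 per cadmium sample. Without cadmium replicate 1 the log2 change was 1.13.

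The 9 peaks from peak 2 onwards were all lower in cadmium samples, and at each of them the 3 cadmium values lay below the 3 control values. All 9 were called lower and 1 higher, against 6.27% of all tested peaks called, a contrast that the choice of the gene already used. Summed over peaks 2 to 10, the level was 120, 103 and 98.6 CPM in cadmium replicates 1, 2 and 3 and 203, 230 and 190 CPM in control replicates 1, 2 and 3. The summed means were 107 ± 11.4 and 207 ± 20.4 CPM (SD, n = 3), so control samples were 1.94-fold higher. Their median log2 change was -0.95, and single peaks ranged from -1.52 to -0.80.

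The change was not even along the gene. Peaks 2 and 3, which also carry A930033H14Rik, had the lowest log2 changes of the gene. Peak 2 was at 4.59, 3.40 and 3.09 CPM in cadmium replicates 1, 2 and 3 and at 6.15, 12.6 and 12.9 CPM in control replicates 1, 2 and 3 (log2 change -1.52, SE 0.28). Peak 3 was at 4.54, 2.12 and 2.63 CPM in cadmium and at 5.81, 7.19 and 11 CPM in control replicates 1, 2 and 3 (log2 change -1.38, SE 0.31). In both, control replicate 1 was the lowest control and cadmium replicate 1 the highest cadmium sample, so batch 1 had the smallest gap between the groups. Their counts per count of peaks 4 to 10 were 0.0669 ± 0.0136 in cadmium and 0.100 ± 0.0410 in control samples (SD, n = 3). The groups overlapped in this within-library ratio, since control replicate 1 (0.0626) lay below cadmium replicate 1 (0.0823).

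Peaks 4 to 10 cover the body and end of the gene and had log2 changes from -0.80 to -1.18. Peak 7 (69269947 to 69270863) held 52.2% ± 4.07 of the gene's peak counts in cadmium and 48.8% ± 2.33 in control samples (SD, n = 3). Its levels were 59.3, 58.0 and 54.6 CPM in cadmium replicates 1, 2 and 3 and 96.7, 119 and 90.3 CPM in control replicates 1, 2 and 3 (log2 change -0.83, SE 0.15). This is the peak of Rhobtb1 with the highest level per length in control samples, 111 ± 16.3 CPM per kb of peak (SD, n = 3), at percentile 86.7 of all peaks by this measure. Peak 9 (69289489 to 69290560), the widest of the gene at 1071 bp, stood at 31.4, 23.4 and 22.8 CPM in cadmium and at 56.0, 58.3 and 46.7 CPM in control replicates 1, 2 and 3 (log2 change -1.05, SE 0.17). The last peak, peak 10, was at 4.78, 4.18 and 4.4 CPM in cadmium and at 12.5, 11.4 and 6.32 CPM in control replicates 1, 2 and 3 (log2 change -1.18, SE 0.24), with control replicate 3 nearest to the cadmium samples.

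The small peaks between them were also lower in all cadmium samples than in all control samples. Peaks 4, 5, 6 and 8, which are 101 to 163 bp wide, had control means of 6.14, 5.85, 6.92 and 4.22 CPM and cadmium means of 3.41, 3.37, 3.58 and 2.28 CPM. Their log2 changes were -0.85, -0.80, -0.95 and -0.89. In control samples the level per length of peaks 2 to 10 ran from 23.7 to 111 CPM per kb, beside a median of 29.2 CPM per kb over all peaks, whereas peak 1 was at 6.23 ± 1.35 CPM per kb (SD, n = 3) and at percentile 5.50. Peaks 2, 3 and 10 varied most among the control samples, with coefficients of variation of 36.1%, 33.7% and 32.6%, where the median of all peaks was 15.8%.

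**Figure D1:**
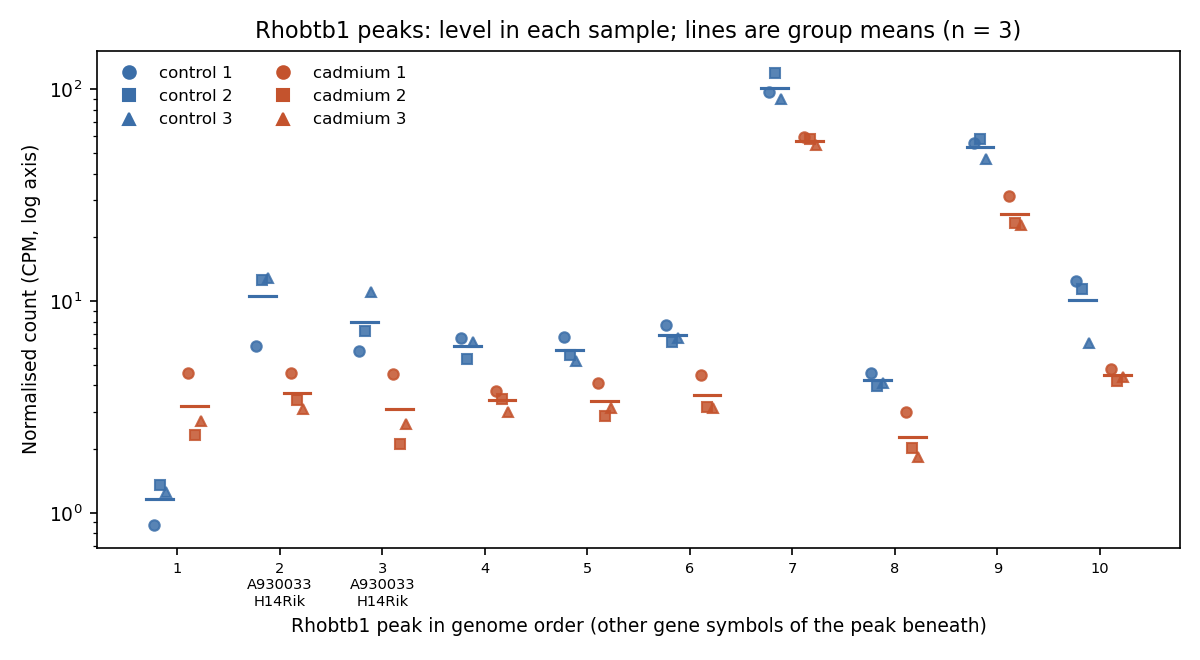
Level of each Rhobtb1 peak in each sample (CPM on a log axis), in genome order, with control in blue, cadmium in red, a marker shape per replicate and a line at each group mean (n = 3). Peak 1 is the single peak with cadmium above control (3.21 against 1.16 CPM), and peaks 2 to 10 have all cadmium values below all control values.

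Arhgap26 lies on chromosome 18 (38601617 to 39376285 in RefSeq, GRCm38.p6), and its 10 peaks formed a pair of clusters separated by 475875 bp without a peak. Peaks 1 to 6, between 38838675 and 38881662, also carry Fgf1 and lie inside the Fgf1 interval (38838672 to 38929470). Peaks 7 to 10, between 39357537 and 39372460, lie outside Fgf1 and within 18625 bp of the Arhgap26 end on the right. Every peak annotated to Fgf1 also carried Arhgap26, so 0 peaks carried Fgf1 alone. Of the 6 peaks with Fgf1, peaks 1 to 5 had log2 changes of -0.74 to -0.55, and the 4 peaks without it had 0.43 to 1.03. Peak 6 was at -0.01, and its sign turned with the replicate block (0.02) and without cadmium replicate 3 (0.01) or control replicate 3 (0.19). By the calls, 4 Arhgap26 peaks were lower and 2 higher. The 4 lower calls were all among the peaks shared with Fgf1. The background share of called peaks is the 6.27% given above, and the choice of the gene used these calls.

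The peaks shared with Fgf1 were led by peak 2 (38840822 to 38842143), which stood at 92.2, 106 and 96.3 CPM in cadmium replicates 1, 2 and 3 and at 133, 155 and 144 CPM in control replicates 1, 2 and 3. The means were 98.2 ± 7.12 and 144 ± 10.9 CPM (SD, n = 3, log2 change -0.55, SE 0.14). Per length this was the highest Arhgap26-annotated peak in control samples, at 109 ± 8.28 CPM per kb (SD, n = 3) and percentile 86.3 of all peaks. Peak 1 (38838675 to 38839535) begins 3 bp inside the left edge of Fgf1, the end at which Fgf1 transcripts terminate. It was at 48.3, 55.8 and 45.4 CPM in cadmium and at 64.2, 99.6 and 77.3 CPM in control replicates 1, 2 and 3 (log2 change -0.69, SE 0.18). In both peaks all cadmium samples lay below all control samples.

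The next peaks into Fgf1 were lower in cadmium samples as well. Peak 4 (38858485 to 38858823) was at 17.8, 23.5 and 19.4 CPM in cadmium and at 26.5, 34.5 and 34.6 CPM in control replicates 1, 2 and 3 (log2 change -0.66, SE 0.17). Peak 5 (38866415 to 38866937) was at 13.8, 17.3 and 13.8 CPM in cadmium and at 20.5, 26.6 and 27.7 CPM in control replicates 1, 2 and 3 (log2 change -0.74, SE 0.17). Neither peak had overlapping groups. Peak 3 (38846966 to 38847199), with means of 12.1 ± 1.62 CPM in cadmium and 17.7 ± 1.52 CPM in control samples (SD, n = 3, log2 change -0.55, SE 0.16), was not called although its groups did not overlap either. Peaks 1 and 3 bracket the threshold, with adjusted p = 0.0487 and 0.0680 in edgeR's quasi-likelihood test, and among Rhobtb1 peaks peak 8 was nearest inside it (adjusted p = 0.0398).

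Peak 6 (38881398 to 38881662), the last one inside Fgf1, did not follow peaks 1 to 5. It was at 3.69, 3.65 and 3.48 CPM in cadmium and at 2.71, 3.63 and 4.58 CPM in control replicates 1, 2 and 3, so the groups overlapped (log2 change -0.01, SE 0.21). It was also low per length, at 13.8 ± 3.54 CPM per kb in control samples (SD, n = 3) against 47.8 to 109 CPM per kb for peaks 1 to 5. Its counts per count of peaks 1 to 5 were 0.0202, 0.0169 and 0.0187 in cadmium and 0.0104, 0.0108 and 0.0152 in control replicates 1, 2 and 3.

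At the right end of Arhgap26 the cadmium samples were higher. Peak 8 (39363855 to 39363963) carries Arhgap26 alone in the annotation, but lies inside the RefSeq interval of Gm15337 (39357763 to 39371084). Peak 8 was at 7.31, 6.15 and 6.14 CPM in cadmium and at 3.36, 3.27 and 3.42 CPM in control replicates 1, 2 and 3. The cadmium mean of 6.53 ± 0.671 CPM was 1.95-fold the control mean of 3.35 ± 0.0776 CPM (SD, n = 3, log2 change 0.96, SE 0.17). Peak 9 (39371028 to 39371805) was at 35, 27.9 and 29.5 CPM in cadmium and at 15.6, 15.5 and 14 CPM in control replicates 1, 2 and 3 (log2 change 1.03, SE 0.15). Both peaks had every cadmium sample above every control sample, with a small spread among controls (coefficients of variation 2.32% and 5.92%).

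The other peaks of this cluster had log2 changes above 0 and were not called. Peak 7 (39357537 to 39357660) was at 2.32, 1.84 and 1.78 CPM in cadmium and at 1.43, 1.77 and 1.20 CPM in control replicates 1, 2 and 3 (log2 change 0.43, SE 0.26). Peak 10 (39372012 to 39372460) was at 15, 6.91 and 11 CPM in cadmium and at 7.39, 5.72 and 4.80 CPM in control replicates 1, 2 and 3 (log2 change 0.87, SE 0.27). In peak 10 the groups overlapped, since cadmium replicate 2 lay below control replicate 1. With the replicate as a block, which uses the batch pairing of the labels, peak 10 was called higher and peak 3 lower. Peaks 9 and 10 also carry Gm15337, yet the RefSeq interval of Gm15337 (39357763 to 39371084) ends within peak 9 and 928 bp before peak 10, and 0 peaks carried Gm15337 without Arhgap26.

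**Figure D2:**
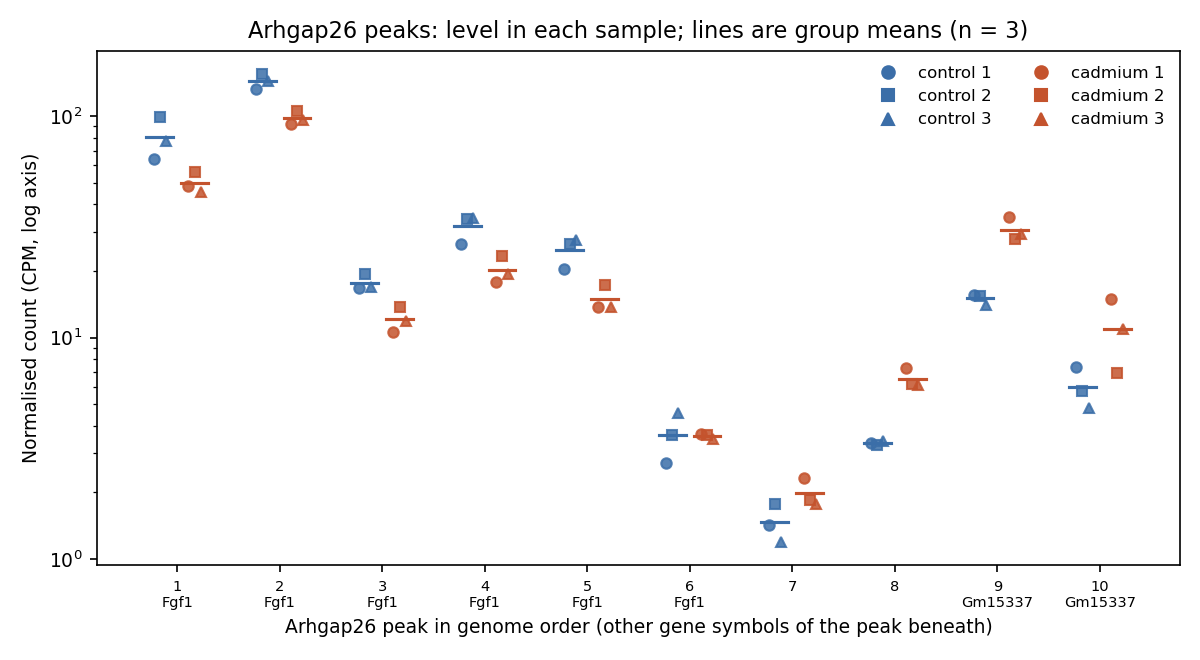
Level of each Arhgap26 peak in each sample (CPM on a log axis), in genome order, with control in blue, cadmium in red, a marker shape per replicate and a line at each group mean (n = 3). In peaks 1 to 5, shared with Fgf1, cadmium lies below control, in peak 6 the groups overlap (3.61 and 3.64 CPM), and in peaks 7 to 9 cadmium lies above control.

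**Figure D3:**
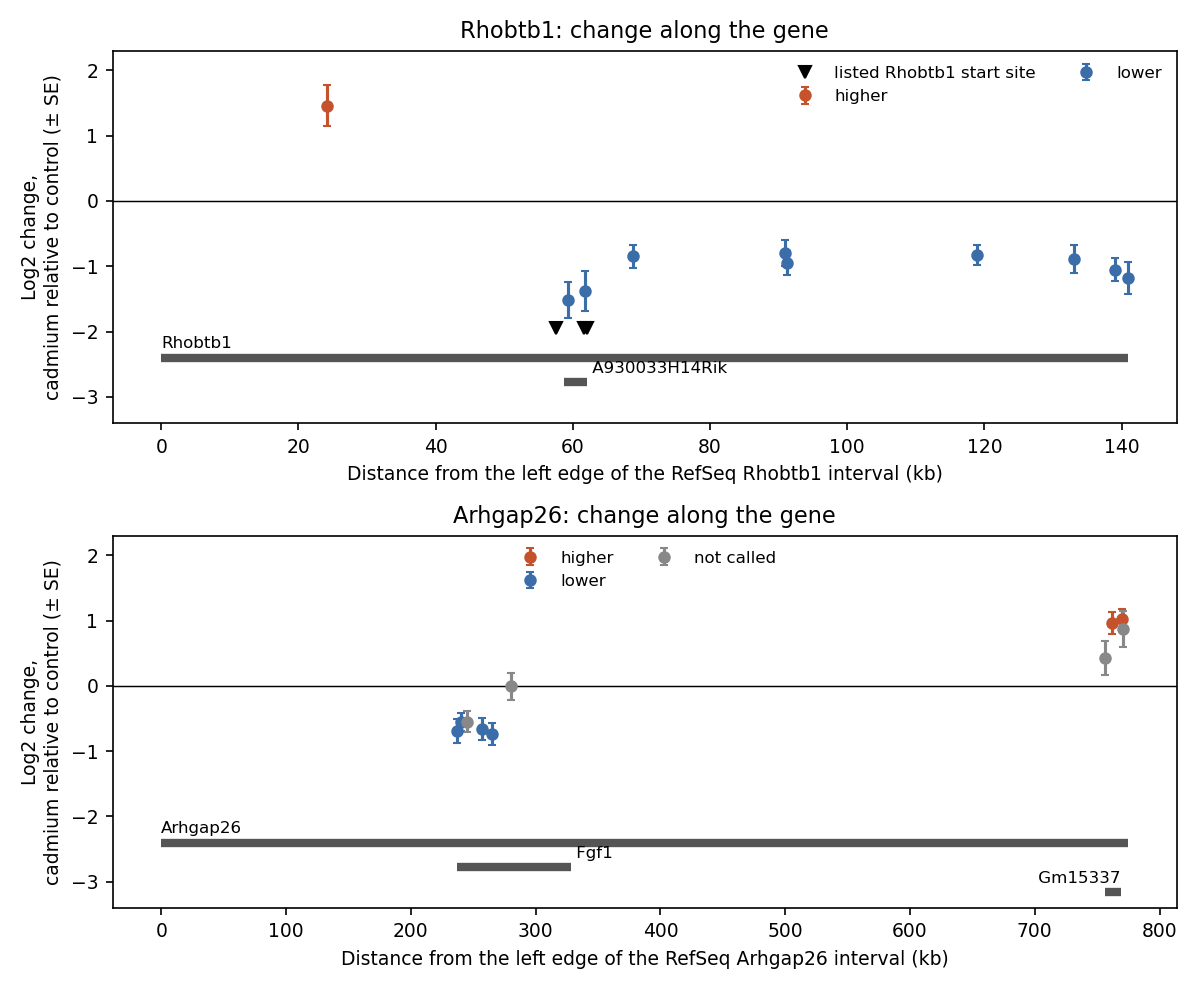
Log2 change of each peak, cadmium relative to control (± SE), against the distance of its centre from the left edge of the RefSeq interval in kb, with called peaks coloured and gene intervals as grey bars. The Rhobtb1 change turns from 1.46 to -1.52 between peak 1 and peak 2, around the first listed start site (triangles), and the Arhgap26 change is below 0 for peaks 1 to 5 inside the Fgf1 bar, near 0 for peak 6 (-0.01, with a sign that turns under some settings) and above 0 at the right end.

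Because the 20 peaks were compared within the same libraries, shares of a gene's own counts do not depend on the scaling between samples. Rhobtb1 peak 1 made up 2.86% ± 0.753 of the gene's peak counts in cadmium and 0.556% ± 0.114 in control samples (SD, n = 3). The 4 Arhgap26 peaks outside Fgf1 made up 20.3% ± 3.98 of the gene's peak counts in cadmium and 7.95% ± 1.36 in control samples (SD, n = 3). In both cases every cadmium sample lay above every control sample. The choice of the genes already used the opposite changes of these peaks, so the shares are a description and no further support. Peaks shared with Fgf1 made up the rest of the Arhgap26 counts (means of 79.7% in cadmium and 92.1% in control samples). A fall at those peaks alone would raise the share of the other 4. Summed without regard to overlap, the 10 Arhgap26 peaks gave 246, 263 and 239 CPM in cadmium replicates 1, 2 and 3 and 292, 365 and 328 CPM in control replicates 1, 2 and 3, a sum dominated by the peaks shared with Fgf1 (199 ± 18.5 and 303 ± 37.5 CPM). The 4 peaks outside Fgf1 summed to 59.6, 42.8 and 48.4 CPM in cadmium and to 27.8, 26.3 and 23.4 CPM in control replicates 1, 2 and 3. Cadmium samples were thus lower when all annotated peaks were summed and higher when the peaks shared with Fgf1 were left aside. Most of the latter sum came from peaks 9 and 10, which also carry Gm15337. Their means were 41.7 of 50.3 CPM in cadmium and 21.0 of 25.8 CPM in control samples. Of the others, peak 8 lies inside the Gm15337 interval and peak 7 was not called. The sum therefore cannot be credited to Arhgap26 alone.

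**Figure D4:**
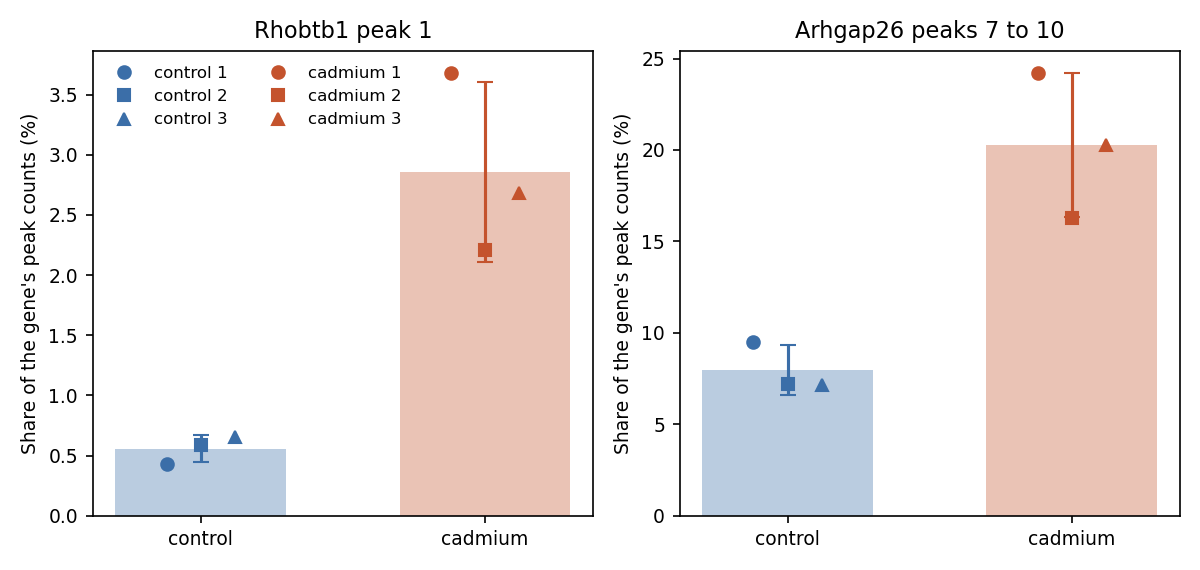
Share of the gene's peak counts held by Rhobtb1 peak 1 (left) and by Arhgap26 peaks 7 to 10 (right) in each sample, in percent, with bars at the group mean and whiskers of 1 SD (n = 3). The cadmium means of 2.86% and 20.3% stand above the control means of 0.556% and 7.95%, and the samples of the groups do not overlap. The choice of the genes already used the opposite changes of these peaks.

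The calls rested on all 6 libraries to different degrees. Without cadmium replicate 3, 0 of 10 Rhobtb1 peaks were called, and the share of all tested peaks called was 1.46%. Without control replicate 3, 3 Rhobtb1 peaks were called lower and 0 higher, with 2.91% of all peaks called. Without cadmium replicate 2 the numbers were 3 lower and 1 higher (4.47% of all peaks). Leaving out cadmium replicate 1 (4.56% of all peaks called) or control replicate 1 (5.33%) also lost the call of peak 1. All 9 lower calls stayed without cadmium replicate 1. Without control replicate 1 or control replicate 2 (4.58% of all peaks) 6 lower calls were left. For Arhgap26, peaks 8 and 9 were called higher in all 6 leave-outs. By contrast, 0 lower calls were left in 4 leave-outs (cadmium replicate 1, cadmium replicate 3, control replicate 2 and control replicate 3). There were 2 without cadmium replicate 2 and 4 without control replicate 1. The shares of all peaks called in these leave-outs are those just given. Over the leave-outs the log2 change ran from 0.88 to 1.00 for Arhgap26 peak 8, from 0.94 to 1.1 for peak 9 and from -0.91 to -0.71 for Rhobtb1 peak 7. The range was wider for Rhobtb1 peaks 1 (1.13 to 1.65) and 3 (-1.74 to -1.08) and for Arhgap26 peaks 1 (-0.83 to -0.51) and 10 (0.58 to 1.12). Blocking on the replicate called 1 Rhobtb1 peak higher and 9 lower, and 3 Arhgap26 peaks higher and 5 lower, with 8.48% of all peaks called.

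In the authors' deposited table, Rhobtb1 peak 1 is marked Up and peaks 2, 3, 9 and 10 Down, and Arhgap26 peak 9 is marked Up. The other 5 Rhobtb1 and 9 Arhgap26 peaks are marked NotSig in the authors' deposited table, whose Up and Down peaks all have an absolute log2 change of at least 1.00. For Fgf1-shared peaks 1 to 5 the authors' deposited table gives log2 changes of -0.70, -0.56, -0.55, -0.66 and -0.74.

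Spry4 and Nr3c1 are the genes with tested peaks on either side of Arhgap26. Within 250 kb of its outermost peaks, 11 peaks were tested, 2 of Spry4, an inhibitor of receptor tyrosine kinase signalling, and 9 of Nr3c1, the glucocorticoid receptor gene. Their log2 changes ran from -0.41 to 0.01 with a median of -0.07. edgeR called 0 of the 11, 0 had an unadjusted p below 0.05, and DESeq2 also called 0. With 6.27% of all peaks called, 0 of 11 is close to the background. The Nr3c1 peak with the highest level (39485964 to 39487291) stood at 146 CPM in cadmium and 152 CPM in control samples.

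By a score that takes the smaller of a gene's highest log2 change and its lowest with the sign turned, over peaks at or above the median level of 7.49 CPM, Arhgap26 ranked 2 of 2686 genes with at least 4 tested peaks (score 0.74, from 1.03 and -0.74). Rhobtb1 ranked 2614, because 2 of its 10 peaks reach that level and both were lower. The 5 other genes with the highest scores were the nuclear noncoding RNA gene Neat1 (score 0.78, changes 1.1 and -0.78), Sphk2 (0.70), Gm20388 (0.65), Tlcd2 (0.62) and Gm20528 (0.61, the same to this precision as Ugt1a9 and Ugt1a10). Of these, Sphk2 shares peaks with Dbp, Tlcd2 with the host gene of a microRNA (Mir22hg), Gm20388 its 180 peaks with many genes, and Gm20528 its 19 peaks with the Ugt1a cluster. None of these 5 had calls in both directions, and the score is a description without a test. The choice of Arhgap26 used its opposite changes, so its rank is no support for them. Its -0.74 comes from peak 5, shared with Fgf1, and its 1.03 from peak 9, which also carries Gm15337. Fgf1 itself, with 6 tested peaks, ranked 2491.

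Genes of the CUL3 ligase machinery, to which RhoBTB proteins bind, fell in 1 of 18 measured genes and rose in 0 by edgeR. This stands beside 9.40% of 13050 genes with any called peak. At an unadjusted p below 0.05 in edgeR 4 genes were lower and 1 higher, and DESeq2 called 1 lower and 0 higher. Dcun1d3, which regulates the attachment of NEDD8 to cullins, had a log2 change of -0.88 (SE 0.19, adjusted p = 0.0247), with 9.72 ± 0.458 CPM in cadmium against 17.9 ± 4.76 CPM in control samples (SD, n = 3). Klhl9 (-0.14), in a peak it shares with Gm26566, and Spop (0.07), both substrate adaptors of CUL3, were not called. Of the list's 73 peaks 2.74% were called, against 6.27% of all peaks, with a median log2 change of -0.13. The Dcun1d3 call was lost when any 1 cadmium replicate or control replicate 3 was left out (adjusted p 0.0519 to 0.12).

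Among the other RhoGAP genes, which share the enzymatic activity of GRAF1, 4 of 33 measured rose and 1 fell (15.2%, beside 9.40% of all genes with a called peak). Dlc1, a RhoGAP for RhoA, had 8 of 23 peaks called higher, and its leading peak was at 4.47, 4.41 and 4.87 CPM in cadmium and at 2.00, 2.15 and 2.02 CPM in control replicates 1, 2 and 3 (log2 change 1.16, SE 0.18, adjusted p = 0.00577). Its relative Stard13 (0.90, SE 0.19, adjusted p = 0.0213) and Abr, a protein with GEF and RhoGAP domains (0.89, SE 0.21, adjusted p = 0.0356), also rose. Stard13 was called at 3 of 8 peaks, its leading peak being shared with Gm42906, and Abr at 1 of 3 peaks. Syde2 fell at 6 of its 7 peaks (leading peak -0.94, SE 0.15, adjusted p = 0.00709). Arhgap21 (-0.69) and Arhgap35 (-0.28) were not called. The list's 190 peaks had a median log2 change of 0.08, with 13 called higher and 6 lower, where 3.55% of all tested peaks were higher and 2.72% lower. Dlc1 was called in all 6 leave-outs and Syde2 in 5, not without cadmium replicate 3 (adjusted p = 0.0584). Stard13 was called only without control replicate 1 and Abr only without cadmium replicate 1 or control replicate 1 (adjusted p 0.0505 to 0.172 in the other leave-outs), and Abr was not called with the replicate block (adjusted p = 0.0501). Counting with that block gave 3 RhoGAP genes higher and 2 lower, and DESeq2 called 6 higher and 2 lower.

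Some markers of nonparenchymal liver cells were also higher in cadmium samples. Of 7 stellate cell markers 3 rose (Lrat, Col1a1 and Col3a1) and 0 fell, with summed levels of 204 to 247 CPM in cadmium and 128 to 165 CPM in control samples. Of 4 measured Kupffer cell and macrophage markers 2 rose (Cd5l and Csf1r), at 227 to 297 and 146 to 211 CPM, and of 5 measured endothelial markers 1 rose (Lyve1), at 159 to 242 and 152 to 217 CPM. Of 3 measured cholangiocyte markers 0 were called, at 84.7 to 293 and 86.0 to 114 CPM. Of 2 measured markers of other leukocytes 0 were called, at 3.24 to 4.76 and 2.24 to 2.95 CPM. Among all 13050 genes with a tested peak, 777 had a peak called higher and 452 a peak called lower. The part of these cell types in the results for Dlc1, Stard13, Arhgap26 and the other genes was not tested. In bulk tissue, more cells of a type and more RNA per cell cannot be told apart, nor can fewer cells and less RNA per cell.

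Close relatives and partners of GRAF1 rose in 1 of 18 measured genes and fell in 0 by edgeR, a share of 5.56% that is below the 9.40% of all genes. At an unadjusted p below 0.05 in edgeR 5 genes were higher and 1 lower, and DESeq2 called 2 higher and 0 lower. The edgeR call was Iqgap1, a scaffold that binds Cdc42 and Rac1, with a log2 change of 0.95 (SE 0.18, adjusted p = 0.0149). Its levels were 11.6 ± 0.476 CPM in cadmium against 5.99 ± 1.36 CPM in control samples (SD, n = 3). Its call was lost without cadmium replicate 3 or control replicate 3 (adjusted p 0.063 and 0.068). With the replicate block 2 genes were called, Iqgap1 and Arhgap10, a GRAF family member named here because the block added it. The endocytic genes Arf1 (-0.42) and Ehd1 (-0.06) were not called. Of 61 peaks 3.28% were called, against 6.27% of all peaks, with a median log2 change of 0.04.

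FGF signalling genes, the downstream side of Fgf1, rose in 1 of 24 measured genes and fell in 1, a share of 8.33% that is near the 9.40% of all genes. Gab1, a docking protein of receptor tyrosine kinases, was at 7.09, 6.57 and 6.49 CPM in cadmium and at 16.5, 15.4 and 12.6 CPM in control replicates 1, 2 and 3 (log2 change -1.14, SE 0.16, adjusted p = 0.00368), in a peak it shares with Gm31105, and was called in all 6 leave-outs. This was the only called peak of the 6 that carry Gab1, and the others had log2 changes of -0.51 to -0.24. The higher call is annotated to the receptor gene Fgfr2 together with Tacc2 (log2 change 1.07, SE 0.21, adjusted p = 0.0159, and 0.0835 without cadmium replicate 3), but that peak lies outside the RefSeq interval of Fgfr2, which 5 of the 66 peaks that carry its name overlap. Klb, the co-receptor for endocrine FGFs (0.42, adjusted p = 0.13), and Dusp6, a phosphatase induced by FGF signals (-1.05, adjusted p = 0.0604, and 0.015 without control replicate 1), were not called by edgeR, while DESeq2 called Dusp6 lower. Of 140 peaks 2.86% were called, against 6.27% of all peaks, with a median log2 change of -0.11. The 140 include the 66 peaks that carry Fgfr2, most of them outside its RefSeq interval, so the share and the median describe those as well.

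**Figure D5:**
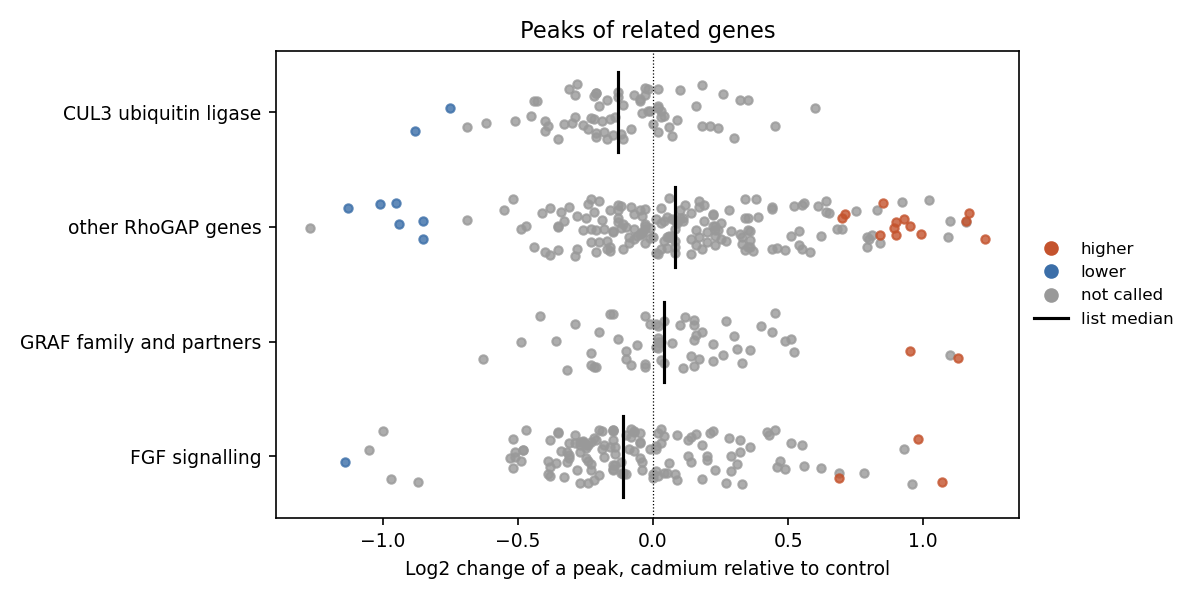
Log2 change, cadmium relative to control, of every tested peak of 4 lists of related genes, 1 point per peak, coloured by call, with a black line at the list median. The medians lie between -0.13 (CUL3 ubiquitin ligase) and 0.08 (other RhoGAP genes), beside 0.00 for all tested peaks. The FGF signalling points include 66 peaks that carry Fgfr2, of which 5 overlap its RefSeq interval.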

How the data were processed

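RNA of 3 cadmium and 3 control liver samples was captured with an m6A antibody. Adapter trimming with cutadapt 1.1.8, alignment with STAR 2.7.1a to mm10, SAMtools 1.3.1, peak calling with MACS2 2.1.1 and DESeq2 4.1.0 are named, with no settings, per the submitters' processing notes. The authors deposited raw counts per peak in 1 common set of 37118 peaks, with their own log2 changes and p-values. The count columns carry sample numbers and were read as IP libraries, which the file does not state.

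Counts were fitted in edgeR 4.0.16 (R 4.3.3) with TMM scaling, a filter at 10 counts per sample and 15 in total, and the quasi-likelihood test, with p-values adjusted by Benjamini-Hochberg over 37088 peaks. The SE is the log2 change divided by the root of F, so it carries no information beyond the test. The biological coefficient of variation was 19.4%. DESeq2 1.42.0, other scalings, no filter, a higher level, single-symbol peaks, a replicate block and leaving out each library were alternatives. Replicate numbers are batches in the labels. Deviations of same-numbered samples correlated at 0.160, 0.232 and 0.196, and those of other pairs at -0.190 to 0.017. Deviations from a group mean cancel out within the group, so these values are not independent of each other, and the pairing was not tested. The main fit did not use the batches, and the replicate block did.

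Promoter windows are from RefSeq (GRCm38.p6). Members and gene lists were chosen with earlier results of these data known. From each list up to 4 called genes with the smallest p and up to 2 others with the highest mean CPM at any of their peaks were named, and the values given are those of the gene's leading peak, the one with the smallest p. Genes most like the members were ranked by the score given in the text. One further gene list is not reported here.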

Additional observations from a re-analysis of the deposited data

How the results depend on the processing

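Of 229 alternative values of the 20 member peaks, 170 kept their direction and their side of the threshold, 51 lost the call, 5 gained it and 3 changed direction. The 3 belong to Arhgap26 peak 6, at 0.02 with the replicate block, 0.01 without cadmium replicate 3 and 0.19 without control replicate 3 (range over the leave-outs -0.18 to 0.19). Other scalings and no filter changed no call of a member peak. The replicate block added Arhgap26 peaks 3 and 10, as did DESeq2, and changed no other member's call. Leading peaks of 2 uncalled genes changed direction when 1 library was left out: Klhl9 at 0.00 without control replicate 2 (leave-outs -0.22 to 0.00) and Ehd1 at 0.04 without cadmium replicate 1 (-0.17 to 0.04).

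Over the whole table DESeq2 called 3683 peaks (2035 higher, 1648 lower) and the block 3144. With only peaks that reach the median level 1058 were called (570 higher, 488 lower). Leaving out 1 library gave 543 to 1976 calls, with 282 to 986 higher and 261 to 1001 lower. The median level was reached by 2 Rhobtb1 and 7 Arhgap26 peaks. Of these, 0 Rhobtb1 peaks were higher and 2 lower, and 1 Arhgap26 peak was higher and 2 lower. Of all 18559 peaks tested at that level 5.70% were called. Rhobtb1 peak 1 does not reach it, so its higher call could not appear there. Arhgap26 has 2 peaks with 1 symbol, peaks 7 and 8, and of these 1 was higher and 0 lower. The higher one is peak 8, which lies inside the RefSeq interval of Gm15337. Every Arhgap26 peak called lower also carries Fgf1 and was left out by this restriction, so 0 lower was fixed by it. Leaving out 1 library gave 0 to 1 higher and 0 to 9 lower Rhobtb1 calls, and 2 to 3 higher and 0 to 4 lower Arhgap26 calls.

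For the CUL3 list the leave-outs gave 0 to 1 lower. For other RhoGAP genes 1 was higher at or above the median level and 1 to 4 in the leave-outs, and 2 were lower by DESeq2 and 2 with the replicate block, with 0 to 1 in the leave-outs. For the GRAF list 2 were higher by DESeq2 and 2 with the replicate block, with 0 to 1 in the leave-outs. For FGF signalling 2 were lower by DESeq2 and 1 to 2 in the leave-outs, 0 to 1 were higher in the leave-outs, and with single-symbol peaks 0 were higher and 0 lower. Fewer samples or peaks enter the leave-outs and level subsets, and other causes were not tested. Rhobtb1 peak 1 rests on 43 to 194 counts per sample and has an SE of 0.31.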
